A study of Mus musculus with 30 samples.

Results

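Imprinted genes are read mainly from one parental copy, in many cases chosen by DNA methylation that was laid down in the egg or the sperm. A list of 44 genes named as imprinted was followed through mouse embryoid body formation and in cells that lack p53 and carry hairpins against its relatives. All 44 were among the 23284 genes of both deposited count tables. By name, 20 were grouped as maternally expressed, 23 as paternally expressed, and Gnas as read from either copy depending on the promoter. Which copy is read in these cells was not measured, and a listed gene may be read from both copies here. The series asks how p53 combines inputs from the Wnt and TGF-β pathways at genes of mesendoderm, from which mesoderm and endoderm arise.

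RNA was sequenced in 14 libraries, 2 per group. Of these, 10 came from the wild-type line E14Tg2a.IV (129/Ola background, called E14 here), as embryonic stem (ES) cells on gelatin in serum with LIF at day 0 and as embryoid bodies, the aggregates that ES cells form in suspension, at days 1, 2, 3 and 4. The other 4 came from day 4 embryoid bodies of C57BL/6J ES cells kept in N2B27 medium with LIF and 2 inhibitors (2i). Of those, 2 were Trp53+/+ and 2 were Trp53-/- with p63shRNA and p73shRNA, called p53 family loss here. The labels name no more than 1 line per genotype. Whether paired libraries came from separate cultures is not stated, so the p-values measure only the spread between these samples, which may be technical.

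Most imprinted genes sit in clusters that share 1 imprinting control region, a stretch whose methylation on one parental copy decides which genes of the cluster are read. Many of the paternally expressed members, such as Igf2, promote fetal or placental growth, and many of the maternally expressed ones, such as Igf2r, Grb10, Cdkn1c and Phlda2, restrain it. The counts give total RNA per gene and hold no allele information, so loss or gain of imprinting cannot be seen in them. Libraries were not stranded, so strand cannot tell the reads of a member from those of an overlapping or antisense gene. Whether reads in a shared stretch were counted or left out is not given in the sources used here. This concerns Kcnq1ot1 with Kcnq1, Igf2r with Airn, Meg3 and Rian with Rtl1, Blcap with Nnat, H13 with Mcts2, Commd1 with Zrsr1, and Mest with Copg2. It also concerns Peg3 with Peg3os, Igf2 with Igf2os, Plagl1 with Hymai, Nap1l5 with Herc3, Ube3a with Snhg14, Usp29 with Zim3, Gnas with its antisense transcript, and Snrpn with Snurf. Further overlaps are those of Zdbf2 with Gpr1 and 1700039I01Rik, Cd81 with R74862, Ddc with 1700042O10Rik, and Snrpn with Snhg14.

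Promoter sequences were matched by symbol for 38 of the 44 members (RefSeq, build GRCm38.p6), which gave 61 windows of 300 bases. The 4 stretches below are those of members on which the results turn. The Peg3 and Usp29 interval is the space between the start sites of a divergent pair that both rose. Grb10 fell between genotypes, Zim1 rose beside Peg3, and Mest was higher in the C57BL/6J lines than in E14. Capitals mark CCAAT on either strand in the first, CG in the second and TGCCGC on either strand in the other two. The Peg3 and Usp29 interval is the plus strand of chr7:6730463-6730558, and Grb10 is the minus strand of chr11:12037421-12037670. Zim1 is the minus strand of chr7:6696433-6696682, and Mest is the plus strand of chr6:30737800-30738049. Each is written 5′ to 3′.
Peg3 and Usp29 interval: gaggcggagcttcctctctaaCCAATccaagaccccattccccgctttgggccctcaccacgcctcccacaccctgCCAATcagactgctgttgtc
Grb10: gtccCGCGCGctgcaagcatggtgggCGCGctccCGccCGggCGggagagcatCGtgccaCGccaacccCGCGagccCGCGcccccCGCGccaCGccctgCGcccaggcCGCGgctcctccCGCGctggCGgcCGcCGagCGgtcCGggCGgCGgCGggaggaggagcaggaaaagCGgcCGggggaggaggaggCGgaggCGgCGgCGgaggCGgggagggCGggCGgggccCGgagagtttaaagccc
Zim1: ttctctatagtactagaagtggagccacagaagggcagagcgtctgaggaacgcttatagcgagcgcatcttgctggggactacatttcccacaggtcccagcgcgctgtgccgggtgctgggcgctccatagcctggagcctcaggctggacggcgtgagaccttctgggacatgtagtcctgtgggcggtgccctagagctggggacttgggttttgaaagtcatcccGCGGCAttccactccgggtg
Mest: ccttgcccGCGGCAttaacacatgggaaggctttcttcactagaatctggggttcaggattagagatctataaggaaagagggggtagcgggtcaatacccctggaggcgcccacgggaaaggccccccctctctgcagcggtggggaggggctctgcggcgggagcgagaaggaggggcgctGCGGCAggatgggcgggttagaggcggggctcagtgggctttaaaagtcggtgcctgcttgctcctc
The 96 bases between the Peg3 and Usp29 start sites held 2 copies of CCAAT. Of the member windows 13.1% held at least 2 copies, and 11.7% of all 32851 promoter windows did. The Grb10 stretch held 40 CG dinucleotides in 250 bases. TGCCGC, the hexamer that the imprint-protecting zinc finger protein ZFP57 recognises when its CG is methylated, was present in 13 of the 61 member windows (21.3%), against 11.6% of all windows. By gene it was found in 12 of 38 members (31.6%) and in 13.1% of all 27025 genes. The 12 were Zdbf2, Nnat, Mest, Nap1l5, Zim1, Snrpn, Igf2, Osbpl5, Plagl1, Grb10, Commd1 and Meg3. Member windows were also richer in CG, with a median of 15 per window against 7 over all windows. A match describes the letters only, and none of these windows was measured here.

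The E14 libraries held 20104644 to 39835808 reads and the other 4 held 19104692 to 31580252. Values below are normalised counts, the reads of a gene divided by 1 factor per library, given for replicates 1 and 2 in that order, and log2 stands for a log2 fold change. As a check of the genotype labels, Trp53 had a normalised count of 8339 and 11784 in Trp53+/+ and 866 and 802 in p53 family loss. Trp73 read 219 and 297 in Trp53+/+ and 48.0 and 52.5 in p53 family loss, and Trp63 was at 0 to 6.08 in all 4. In E14 the ES cell gene Zfp42 read 21590.2 and 20872 at day 0 and 371 and 511 at day 4, and the mesoderm gene T (brachyury) read 98.8 and 55.8 at day 0 and 21465 and 16448 at day 4. Replicate 1 of day 0 stood apart, with Fos at 5859.9 against 144 in replicate 2. Replicate 2 of both genotypes carried more ribosomal RNA, with Rn45s at 4.30% and 2.91% of reads against 0.632% and 0.848% in the replicates 1.

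Between day 0 and day 4 in E14, 19 of the 43 members tested rose and 2 fell. Of all 15841 genes tested, 19.2% were called higher and 16.7% lower (limma, Benjamini-Hochberg adjusted p under 0.05). The median log2 fold change was 0.69 over the members and 0.01 over all genes, and 35 members had a positive sign. Both day 4 libraries lay above both day 0 libraries in 23 members, against 34.0% of all genes, and below in 4, against 32.7%. Among the maternally expressed members 6 of 20 rose and 0 fell (median 0.38), namely Asb4, Zim1, Dcn, H19, Phlda2 and Osbpl5. Of these 20, 10 had an unadjusted p under 0.05, 1 of them with a lower value at day 4. edgeR called 0 lower and DESeq2 1, Slc22a18. Among the paternally expressed members 12 of 22 rose (median 1.05), namely Rasgrf1, Peg3, Magel2, Usp29, Igf2, Ndn, Nnat, Peg10, Zdbf2, Peg12, Slc38a4 and Inpp5f. Ddc and Sfmbt2 fell. In a bulk sample, more or fewer cells of a type and more or less RNA per cell cannot be told apart. Beside these values, 8 primitive streak markers summed to at most 22.2 CPM (recovered reads scaled to a common library total) at day 0 and to between 1852 and 2089 CPM at day 4. Likewise 10 extraembryonic endoderm markers summed to between 272 and 319 CPM at day 0 and between 501 and 553 CPM at day 4. The trophoblast markers Tpbpa and Prl3d1 were at 0 in every group. Together the 11 trophoblast markers summed to 76.7 to 170 CPM at day 0, 22.2 to 29.7 CPM at day 3 and 85.9 to 121 CPM at day 4. Of the 8 tested, 3 were called higher at day 4 than at day 0 (Cdx2, Gata3 and Plac1) and 2 lower (Tfap2c and Esx1). The part of these cell types in the members' changes was not tested.

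**Figure D1:**
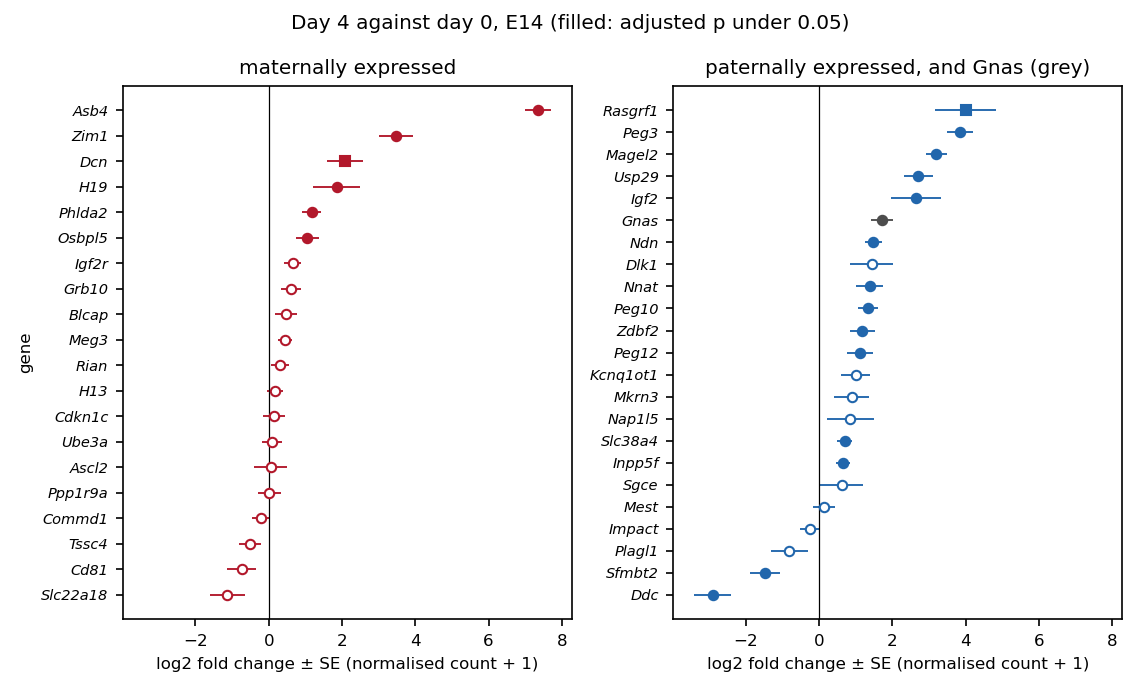
Log2 fold change (day 4 minus day 0, on log2 of the normalised count plus 1) of the 43 tested members in E14, with the standard error as a bar. Filled symbols have adjusted p under 0.05, and squares mark Dcn and Rasgrf1, which had 3 reads each over both day 0 libraries. Of the filled symbols 19 lie to the right of 0 and 2, Ddc and Sfmbt2, to the left.

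Asb4, an adaptor of a ubiquitin ligase known from vascular differentiation, had the steepest rise of the maternally expressed members. Its normalised counts were 12.1 and 15.4 at day 0, 26.7 and 27.9 at day 1, 32.3 and 25.8 at day 2, 62.9 and 87.4 at day 3 and 2086 and 2743 at day 4. Both day 4 libraries lay far above the other 8, and the level was 176-fold that of day 0 (log2 fold change 7.35, SE 0.36, adjusted p = 4.0e-06). Most of this came in the last day, with a log2 fold change of 4.99 (SE 0.36, adjusted p = 3.0e-04) from day 3 to day 4. Asb4 lies in the Peg10 and Sgce cluster, where Ppp1r9a, a neuronal actin-binding protein, stayed at 1068 and 1871 at day 0 and 1338 and 1529.6 at day 4 (log2 fold change 0.02, SE 0.32, adjusted p = 0.97).

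Zim1, a zinc finger gene beside Peg3, read 15.4 and 23.7 at day 0, 29.3 and 43.1 at day 1, 41.1 and 31.1 at day 2, 36.2 and 81.6 at day 3 and 222 and 224 at day 4. Its day 4 libraries were nearly equal and above all others, with a log2 fold change of 3.48 (SE 0.47, adjusted p = 5.3e-04) from day 0. The paternally expressed pair of the same cluster rose with it. Peg3, a large zinc finger protein with a repressor role, read 895 and 1946 at day 0, 2476 and 3604 at day 1, 3380.4 and 2699 at day 2, 3140.4 and 5035 at day 3 and 18239 and 19879 at day 4. That was a 13.4-fold rise (log2 3.85, SE 0.35, adjusted p = 7.2e-05), with no overlap between day 4 and any earlier day. Usp29, a deubiquitinase that starts next to Peg3 on the opposite strand (the interval printed above), read 24.1 and 15.4 at day 0, 101 and 76.7 at day 1, 86.1 and 50.7 at day 2, 46.7 and 45.1 at day 3 and 136 and 128 at day 4. It rose at day 1 already (log2 2.13, SE 0.41, adjusted p = 0.024), was lower again at days 2 and 3, and reached its highest values at day 4 (against day 0, log2 2.71, SE 0.41, adjusted p = 8.8e-04). All 3 members listed here for the Peg3 cluster were thus called higher at day 4, and they include genes of both parental classes.

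H19, a non-coding RNA that hosts a microRNA, and Igf2, the fetal growth factor that competes with it for the same enhancers, both reached their highest values at day 4. H19 read 484 and 119.9 at day 0, 112 and 44.7 at day 1, 164 and 145 at day 2, 184 and 386 at day 3 and 768 and 995 at day 4. The lowest value was at day 1 and the 2 day 0 libraries differed 4.04-fold, and the rise to day 4 was just past the threshold (log2 1.85, SE 0.64, adjusted p = 0.046). It was lost in 10 of 18 alternative settings, edgeR among them. Without replicate 2 of day 0 it was 0.85 (adjusted p = 0.22), and without replicate 1 of day 0 it was 2.86 (adjusted p = 0.0028). Igf2 read 3737 and 1625 at day 0, 972 and 279 at day 1, 371 and 358 at day 2, 381 and 1038 at day 3 and 9423 and 25273 at day 4. It was lower at days 1 to 3 than at day 0, and the day 4 libraries lay above all others while differing 2.68-fold from each other (against day 0, log2 2.65, SE 0.68, adjusted p = 0.014, and against day 3, log2 4.62, SE 0.68, adjusted p = 0.0068). The call against day 0 was lost without replicate 2 of day 4 (log2 1.93, adjusted p = 0.12) or replicate 2 of day 0 (log2 2.05, adjusted p = 0.0503). Igf2r, the receptor that carries IGF2 to the lysosome, read 4802 and 4271 at day 0, 3490.0 and 5263 at day 1, 6398 and 6601 at day 2, 5162 and 7889 at day 3 and 6554 and 7719 at day 4. Its day 4 libraries were above those of day 0 and the difference did not pass the test (log2 0.65, SE 0.24, adjusted p = 0.059).

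The growth-restraining members did not move as one. Phlda2, which limits placental growth, read 2238 and 2011 at day 0, 1783 and 1480.4 at day 1, 1461 and 932 at day 2, 819 and 634 at day 3 and 4185 and 5458 at day 4. Its level was lower on each later day to day 3 and then above all earlier values at day 4 (against day 3, log2 2.73, SE 0.25, adjusted p = 7.1e-04, and against day 0, log2 1.17, SE 0.25, adjusted p = 0.0060). Cdkn1c, the cell cycle inhibitor p57, read 1171 and 2513 at day 0, 4278 and 3964 at day 1, 2549 and 2098 at day 2, 1123 and 1025 at day 3 and 1788 and 2017 at day 4. It was highest at day 1 and lowest at day 3, and it changed over the 5 days (adjusted p = 0.0069 for any change) while day 4 and day 0 overlapped (log2 0.15, SE 0.30, adjusted p = 0.73). Grb10, an adaptor that dampens insulin and IGF receptor signalling, read 8189 and 12554 at day 0, 5222 and 8410.4 at day 1, 9189 and 8708 at day 2, 8781 and 10981 at day 3 and 13769 and 17464 at day 4. It changed over the days (adjusted p = 0.039), with the highest values at day 4, but day 4 against day 0 alone did not pass (log2 0.61, SE 0.27, adjusted p = 0.099).

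Other genes of the Kcnq1ot1 cluster, which holds Phlda2 and Cdkn1c, showed each its own course. Osbpl5, a lipid transfer protein, read 138 and 147 at day 0, 62.0 and 101 at day 1, 159.5 and 157 at day 2, 235 and 253 at day 3 and 286 and 309 at day 4 and rose from day 0 to day 4 (log2 1.05, SE 0.31, adjusted p = 0.023). Ascl2, a transcription factor of trophoblast progenitors, read 52.7 and 134 at day 0, 151 and 186 at day 1, 262 and 345 at day 2, 189 and 240.3 at day 3 and 116 and 65.2 at day 4. It was highest at day 2 (adjusted p = 0.031 for any change) and its day 4 range lay within that of day 0. Slc22a18, a transporter-like membrane protein, read 273 and 103 at day 0, 35.3 and 46.3 at day 1, 48.0 and 64.9 at day 2, 42.0 and 58.3 at day 3 and 69.3 and 83.7 at day 4, with its highest values at day 0 (adjusted p = 0.038 for any change). Kcnq1ot1 itself, the paternally expressed non-coding RNA that silences this cluster in cis, read 138 and 216 at day 0, 168 and 211 at day 1, 214 and 164 at day 2, 467 and 393 at day 3 and 525 and 227 at day 4. Its values were highest at days 3 and 4 with the 2 day 4 libraries 2.31-fold apart, and no comparison passed the limma test (for day 4 against day 0, log2 0.99, SE 0.41, adjusted p = 0.080). Of the 8 members of this cluster 2 rose by limma, against 19.2% of all genes.

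Meg3 and Rian are non-coding RNAs of the Dlk1 and Meg3 cluster. Meg3 read 11002 and 11438 at day 0, 6796 and 8615 at day 1, 10539.5 and 11965 at day 2, 12435 and 17900.3 at day 3 and 15261 and 15321 at day 4. It was lowest at day 1 and highest at days 3 and 4 (adjusted p = 0.014 for any change), with a log2 fold change of 0.45 (SE 0.20, adjusted p = 0.10) from day 0 to day 4. Rian read 7325 and 12249 at day 0, 6227 and 8331 at day 1, 8729 and 10452 at day 2, 11035 and 12503 at day 3 and 11174 and 12285 at day 4, with overlapping day 0 and day 4 values (log2 0.31, SE 0.24, adjusted p = 0.35). Dlk1, a membrane protein related to Notch ligands and read from the other parental copy, read 71.3 and 253 at day 0, 122 and 184 at day 1, 273 and 242 at day 2, 161 and 139.8 at day 3 and 225 and 589 at day 4. The day 0 and day 4 ranges overlapped, and the difference did not pass the test (log2 1.43, SE 0.59, adjusted p = 0.082). By limma 0 of the 3 were called for day 4 against day 0, and 2 of them had an unadjusted p under 0.05 there. edgeR called 0 as well, and DESeq2 called Dlk1 higher.

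Peg10, a gene derived from a retrotransposon and needed for the placenta, read 14139.9 and 25406 at day 0, 12907 and 11186 at day 1, 5587 and 5543 at day 2, 7876 and 10582 at day 3 and 39366 and 58064 at day 4. It was lower at days 2 and 3 than at day 0 and highest at day 4 (against day 3, log2 2.39, SE 0.28, adjusted p = 0.0024, and against day 0, log2 1.33, SE 0.28, adjusted p = 0.0058). Sgce, the ε-sarcoglycan gene that starts next to Peg10, read 722 and 203 at day 0, 60.3 and 135 at day 1, 112 and 182 at day 2, 227 and 399 at day 3 and 542 and 641 at day 4. The 2 day 0 libraries differed widely, day 1 was lowest, and the gene changed over the days (adjusted p = 0.024) but not between day 0 and day 4 (log2 0.62, SE 0.59, adjusted p = 0.43). Slc38a4, an amino acid transporter, read 8716 and 8382 at day 0, 8697 and 9008 at day 1, 5527 and 5208 at day 2, 4225 and 5282 at day 3 and 11226 and 17030.3 at day 4. Days 2 and 3 were lowest and day 4 was highest (against day 3, log2 1.55, SE 0.20, adjusted p = 0.0042, and against day 0, log2 0.69, SE 0.20, adjusted p = 0.024).

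In the Prader-Willi region on chromosome 7, Magel2 and Ndn, related genes of the MAGE family, rose by different routes. Magel2 read 76.8 and 123 at day 0, 485 and 734 at day 1, 1259 and 1245 at day 2, 1971 and 1695 at day 3 and 974 and 836 at day 4. It was already 6.08-fold higher at day 1 (log2 2.60, SE 0.28, adjusted p = 0.0029), highest at day 3 and lower again at day 4, which still lay above day 0 (log2 3.20, SE 0.28, adjusted p = 5.6e-05). Ndn read 789 and 494 at day 0, 572 and 533 at day 1, 843 and 1031 at day 2, 1187 and 1136 at day 3 and 1818 and 1676 at day 4, with day 4 above all earlier libraries (log2 1.48, SE 0.24, adjusted p = 0.0013). Peg12, a relative of the Frat proteins that favour Wnt signalling, read 172 and 149.6 at day 0, 65.5 and 94.2 at day 1, 115 and 142 at day 2, 112 and 88.8 at day 3 and 272 and 444 at day 4. Both day 4 libraries were the highest (against day 0, log2 1.11, SE 0.35, adjusted p = 0.033). That call was lost without replicate 2 of day 4, without replicate 2 of day 0, or when either day 2 library was left out. Mkrn3, a makorin ring finger protein, and Ube3a, the Angelman syndrome ubiquitin ligase, did not pass the test, with a log2 fold change of 0.89 (SE 0.49, adjusted p = 0.18) and of 0.08 (SE 0.27, adjusted p = 0.83). Snrpn, the splicing protein of this region, was listed at 0 in 9 of the 10 E14 libraries and at 1.46 in the other one. Snurf, which shares its transcript, was at 0 in 9 of 10 as well. Snrpn and Snurf overlap, and the part of shared reads in these zeros was not tested.

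The 2 members that fell had their high values early. Ddc, the decarboxylase of dopamine and serotonin synthesis that neighbours Grb10, read 294 and 667 at day 0, 723 and 695 at day 1, 212 and 108 at day 2, 50.5 and 21.8 at day 3 and 50.3 and 67.4 at day 4. Days 0 and 1 were high and days 3 and 4 low, 8.17-fold lower at day 4 than at day 0 (log2 -2.91, SE 0.51, adjusted p = 0.0022). The log2 fold change was -2.32 without replicate 2 of day 0 and -3.50 without replicate 1. Sfmbt2, a polycomb-related protein needed in trophoblast, read 1613 and 4984 at day 0, 1855 and 2276 at day 1, 935 and 699.6 at day 2, 969.9 and 877 at day 3 and 981 and 1063 at day 4. The highest value was in replicate 2 of day 0, and all values from day 2 on lay below those of days 0 and 1 (log2 -1.47, SE 0.41, adjusted p = 0.020). Without that library the log2 fold change was -0.66. Gnas, which encodes the stimulatory G protein subunit, read 13077 and 8147 at day 0, 7079.9 and 10167 at day 1, 13493 and 19213 at day 2, 19738 and 29860.1 at day 3 and 30429 and 37867 at day 4. It was higher on each later day from day 1 on and rose 3.22-fold from day 0 to day 4 (log2 1.72, SE 0.30, adjusted p = 0.0021).

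**Figure D2:**
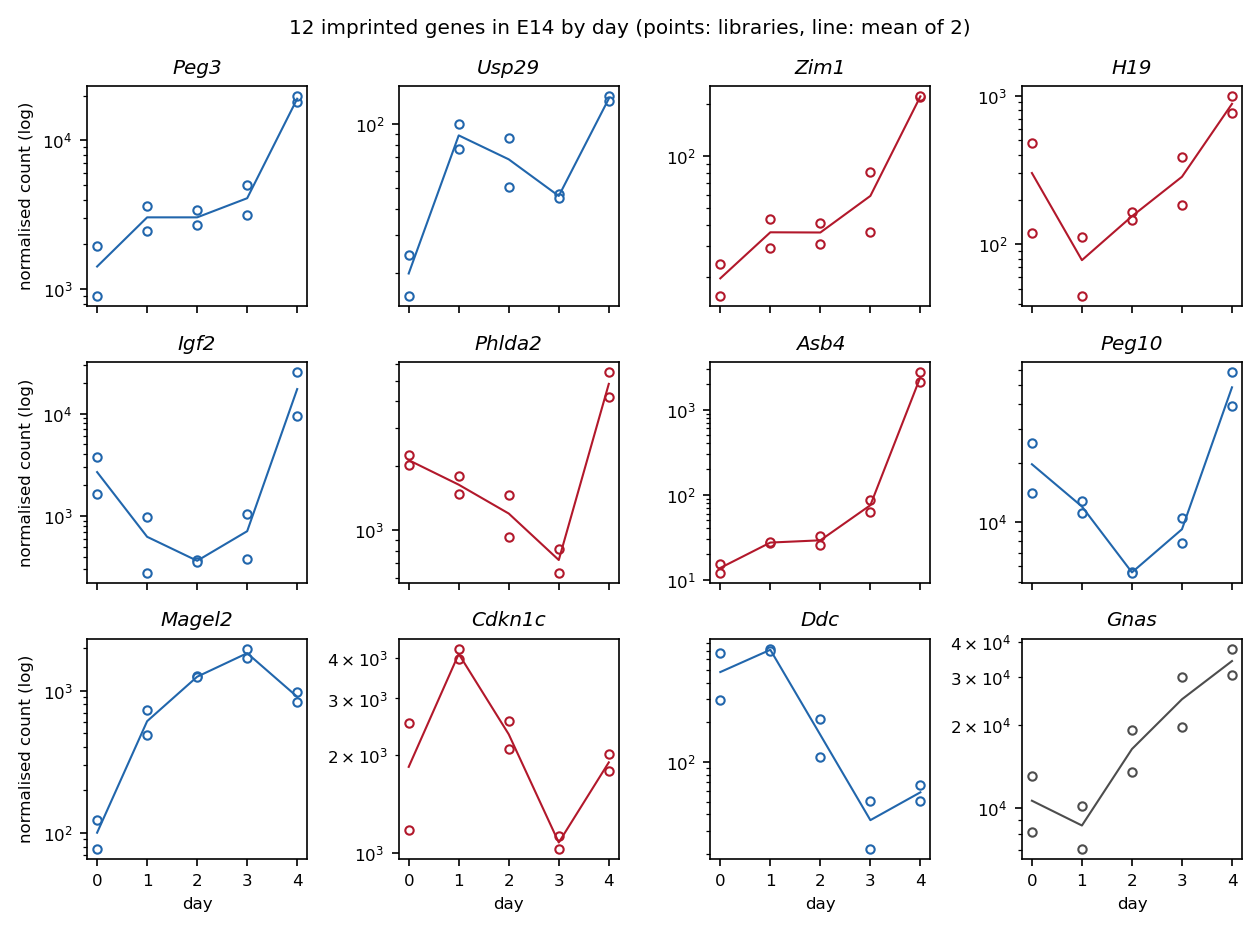
Normalised counts of 12 members in E14 by day, on log axes with a scale of their own, with each library as a point and the mean of 2 as a line (red, maternally expressed; blue, paternally expressed; grey, Gnas). Asb4, Peg3, Zim1, Igf2, Phlda2 and Peg10 are highest in both day 4 libraries, Magel2 at day 3, and Cdkn1c and Ddc at day 1.

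Other members outside these clusters rose as well, 2 of them on few reads. Zdbf2, a zinc finger gene, read 1238 and 2823 at day 0, 1409 and 2233 at day 1, 2136 and 2159 at day 2, 3456 and 4011 at day 3 and 4496 and 3991 at day 4 and rose (log2 1.18, SE 0.34, adjusted p = 0.023), but not when replicate 1 of day 0 was left out (log2 0.59, adjusted p = 0.080). Nnat, the small membrane protein neuronatin, read 96.6 and 156 at day 0, 141 and 197 at day 1, 162 and 261 at day 2, 196 and 284 at day 3 and 326 and 314 at day 4, with day 4 highest (log2 1.38, SE 0.37, adjusted p = 0.016). Inpp5f, a phosphoinositide phosphatase, read 1411 and 1142 at day 0, 1453 and 1856 at day 1, 1852 and 1885 at day 2, 1891 and 1657 at day 3 and 1947 and 2078 at day 4 and was higher at day 4 by a log2 fold change of 0.66 (SE 0.19, adjusted p = 0.022). The calls of Nnat, Inpp5f, Osbpl5, Dcn, Zdbf2 and Sfmbt2 were each lost when either day 4 library was left out, and those of Phlda2, Peg10 and Slc38a4 against day 0 without replicate 2 of day 4. Mest, a hydrolase and widely used imprinting marker, read 454 and 706 at day 0, 599.6 and 470.3 at day 1, 378 and 342 at day 2, 296 and 252 at day 3 and 501 and 764 at day 4. It was lowest at day 3 (adjusted p = 0.036 for any change). Dcn, the matrix proteoglycan decorin, had 2 and 1 reads at day 0, 38 and 26 at day 1 and 13 and 9 at day 4. The ratio of its CPM to day 0 was 15.8 at day 1 (95% counting interval 5.17 to 78.6) and 6.73 at day 4 (2.02 to 35.1). Rasgrf1, an exchange factor for Ras, had 0 and 3 reads at day 0 against 51 and 24 at day 4, a ratio of 23.0 (7.56 to 114). These exact intervals cover counting error only.

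Over all days, 26 of the 43 members changed, against 38.9% of all genes: 11 maternally expressed, 14 paternally expressed and Gnas. Of these, 18 had their highest mean at day 4, and 2 each at days 0, 1, 2 and 3. Between day 0 and day 1, 3 members were higher (Dcn, Magel2 and Usp29) against 1.75% of all genes, and 0 were lower against 1.55% by limma. There 16 members had an unadjusted p under 0.05, edgeR called 3 and 1, and DESeq2 5 and 3. The Dcn call was lost without replicate 1 of day 1, and the Usp29 call when either library of day 1 or of day 4 was left out. From day 1 to day 2, 0 members were called higher and 0 lower by limma and by edgeR, and 3 and 4 by DESeq2, with 12 at unadjusted p under 0.05. Of all genes 0.158% were called higher and 0.436% lower. From day 2 to day 3 it was again 0 and 0 by limma and by edgeR, and 1 and 2 by DESeq2, with 8 at unadjusted p under 0.05. Of all genes 0.133% were called higher and 0.0% lower. From day 3 to day 4, 7 members were higher, against 2.31% of all genes: Asb4, Igf2, Phlda2, Peg10, Peg3, Peg12 and Slc38a4. By limma 0 were lower, against 0.619%, and 16 of either sign had an unadjusted p under 0.05. edgeR called the same 7 higher and 0 lower. DESeq2 called 10 higher (those 7, Mest, Usp29 and Zim1) and 1 lower, Magel2. Without replicate 1 of day 3, 2 of the 7 were left, and without replicate 2 of day 4, 3.

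**Figure D3:**
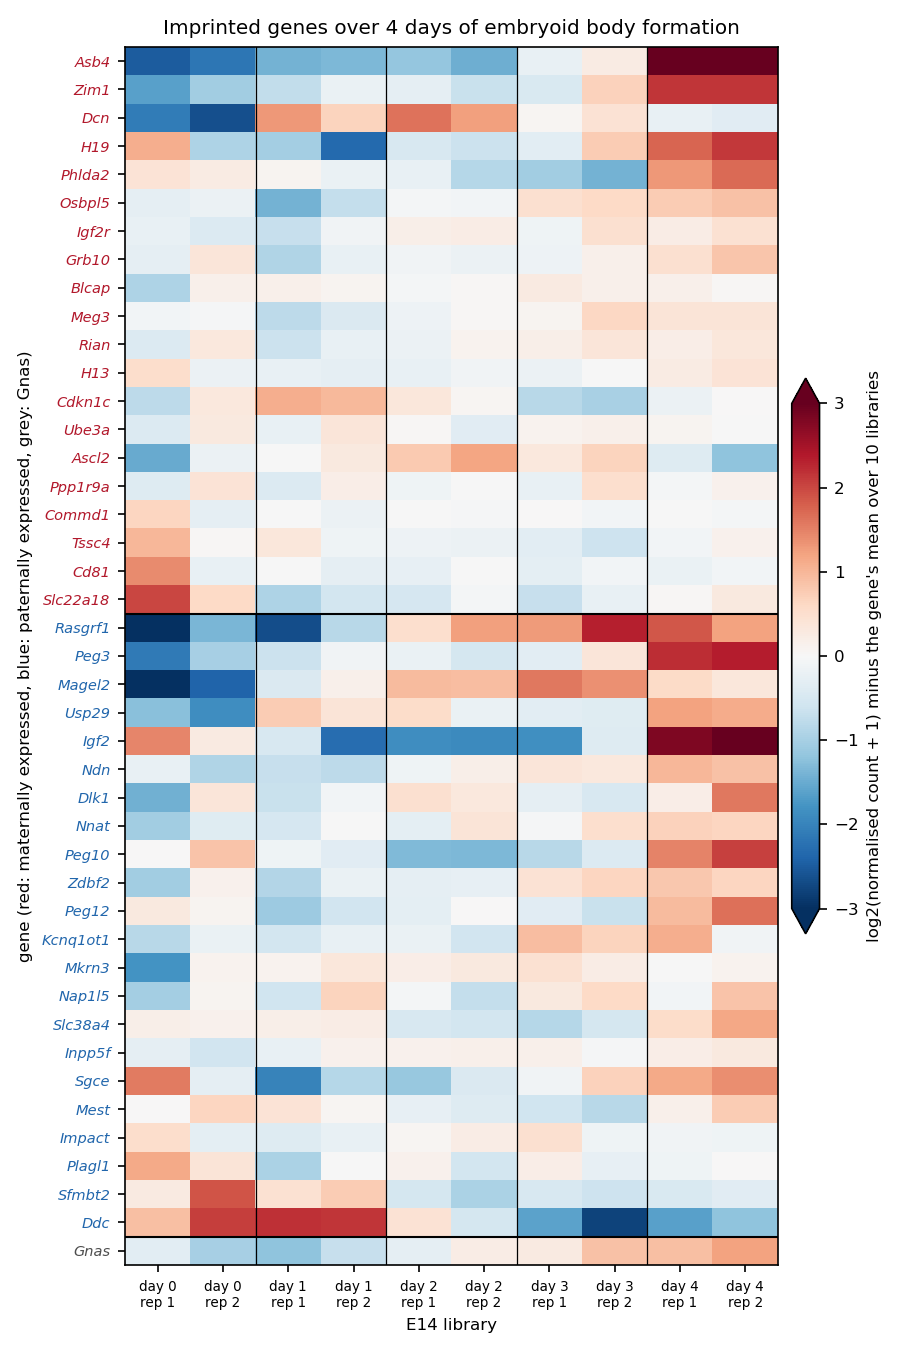
Log2 of the normalised count plus 1, minus the gene's mean over the 10 E14 libraries, for the 43 tested members (rows, ordered within each class by the change from day 0 to day 4) and the 10 libraries (columns). The scale ends at 3 on either side. Asb4, Zim1, H19, Phlda2, Peg3 and Igf2 are warmest in the 2 day 4 columns. The 2 day 0 columns differ from each other in several genes. Among these, Igf2, H19, Sgce and Cd81 are higher in replicate 1, and Mkrn3, Dlk1 and Sfmbt2 in replicate 2.

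The count of rises depended on single libraries. It was 20 without replicate 1 of day 0 and 23 without replicate 2 of day 0, but 13 without replicate 1 of day 4 and 9 without replicate 2 of day 4. The count of falls was 7 without replicate 2 of day 0 and 1 when either day 4 library was left out. The calls for Asb4, Zim1, Peg3, Usp29, Magel2, Ndn, Rasgrf1, Ddc and Gnas held in all 18 alternative settings. Of the 43 tested members, 15 had no call by limma in any comparison. DESeq2 called 4 of these, namely Dlk1, Igf2r and Kcnq1ot1 as higher at day 4 than at day 0 and H13 as lower in p53 family loss. They were 9 maternally expressed genes (Igf2r, Rian, Ube3a, Blcap, H13, Commd1, Cd81, Ppp1r9a and Tssc4) and 6 paternally expressed genes (Dlk1, Mkrn3, Plagl1, Kcnq1ot1, Impact and Nap1l5), with log2 fold changes from -0.81 (Plagl1) to 1.43 (Dlk1) between day 0 and day 4.

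In day 4 embryoid bodies that lacked p53 and carried hairpins against p63 and p73, Grb10 was 29.6-fold lower, and H19, Peg12 and Sgce were higher than in Trp53+/+. By limma 3 of 43 members were thus called higher, against 0.566% of 14840 genes, and 1 lower, against 0.674%. edgeR called the same 4. DESeq2 called 5 higher (those 3, Nnat and Peg10) and 5 lower (Grb10, Asb4, H13, Peg3 and Phlda2). The median log2 fold change of the members was 0.14 (-0.23 over the 20 maternally and 0.22 over the 22 paternally expressed), and that of all genes 0.01. With 2 libraries a group, 13 members had both loss libraries above both Trp53+/+ libraries, against 23.0% of all genes, and 12 had both below, against 20.2%.

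Grb10 read 11869.9 and 11059 in Trp53+/+ and 374 and 401 in p53 family loss. The groups did not overlap, with a log2 fold change of -4.88 (SE 0.15, adjusted p = 4.0e-04), and under the 11 alternatives it ranged from -4.93 to -4.83. Ddc, its neighbour in the cluster, read 67.8 and 46.4 in Trp53+/+ and 70.2 and 56.8 in p53 family loss, with overlapping groups (log2 0.17, SE 0.34, adjusted p = 0.89). The loss libraries held Grb10 at 16.0 and 16.1 CPM, while all 10 E14 libraries lay at 159.8 to 585 CPM and the Trp53+/+ libraries at 492 and 436 CPM. Since the labels name no more than 1 line per genotype, the genotype and the line cannot be told apart.

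H19 read 2440.3 and 1430.2 in Trp53+/+ and 7312 and 6388 in p53 family loss, with both loss libraries higher (log2 1.87, SE 0.26, adjusted p = 0.036). Igf2, its counterpart in the cluster, read 2823 and 1118 in Trp53+/+ and 2132 and 1091 in p53 family loss, and its groups overlapped (log2 -0.22, SE 0.49, adjusted p = 0.90). Peg12 read 130.3 and 65.0 in Trp53+/+ and 716 and 463 in p53 family loss, 6.04-fold higher in the loss line (log2 2.63, SE 0.39, adjusted p = 0.042). Sgce read 354 and 367 in Trp53+/+ and 849 and 889 in p53 family loss, where libraries of a group were close to each other (log2 1.27, SE 0.18, adjusted p = 0.035). Its call was lost without replicate 1 (adjusted p = 0.13) or replicate 2 (adjusted p = 0.16) of the loss line, although the log2 fold change stayed at 1.30 and 1.23. The Sgce neighbour Peg10 read 24599.8 and 8994 in Trp53+/+ and 58815 and 37056 in p53 family loss. Its groups did not overlap, but the Trp53+/+ libraries differed widely and the difference did not pass (log2 1.65, SE 0.48, adjusted p = 0.20).

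Several members that rose in E14 by day 4 had lower values in the loss line without passing the limma test. Others that rose had a positive log2 fold change there, among them H19, Peg12, Peg10, Nnat, Magel2, Dcn and Ndn. DESeq2 called Phlda2, Peg3 and Asb4 lower. Phlda2 read 1697 and 1292 in Trp53+/+ and 846 and 595 in p53 family loss (log2 -1.06, SE 0.24, adjusted p = 0.12). In the Peg3 cluster, Peg3 read 12577 and 4094 in Trp53+/+ and 3332 and 2677 in p53 family loss (log2 -1.26, SE 0.48, adjusted p = 0.32) and Usp29 103 and 86.2 in Trp53+/+ and 33.3 and 45.6 in p53 family loss (log2 -1.25, SE 0.33, adjusted p = 0.16). Both had non-overlapping groups, and Peg3 differed more within Trp53+/+ than between its lower library and the loss line. Asb4 read 558 and 157 in Trp53+/+ and 113 and 111 in p53 family loss (log2 -1.39, SE 0.56, adjusted p = 0.34), again with 1 high Trp53+/+ library. Nnat, on the other side, read 1769.7 and 2339 in Trp53+/+ and 4387 and 6416 in p53 family loss, with both loss libraries higher and an adjusted p just above the threshold (log2 1.38, SE 0.24, adjusted p = 0.062). Apart from H19 and Grb10, the non-coding RNAs and growth restrainers described above did not pass either. Meg3 read 11972 and 10688 in Trp53+/+ and 17704 and 11034 in p53 family loss (log2 0.31, SE 0.25, adjusted p = 0.68). Rian read 7719 and 7196 in Trp53+/+ and 10595 and 10591 in p53 family loss (log2 0.51, SE 0.15, adjusted p = 0.20), and Cdkn1c read 959 and 983 in Trp53+/+ and 809 and 760.3 in p53 family loss (log2 -0.31, SE 0.16, adjusted p = 0.49). The groups of Rian and Cdkn1c did not overlap, and those of Meg3 did. Igf2r read 5498 and 3866 in Trp53+/+ and 4607 and 4126 in p53 family loss (log2 -0.08, SE 0.21, adjusted p = 0.91). Dlk1 read 149 and 151 in Trp53+/+ and 157 and 114 in p53 family loss (log2 -0.16, SE 0.27, adjusted p = 0.86). For Kcnq1ot1 the values were 996 and 1189 in Trp53+/+ and 1921 and 784 in p53 family loss (log2 0.17, SE 0.40, adjusted p = 0.90). In Igf2r, Dlk1 and Kcnq1ot1 the groups overlapped. Snrpn stayed between 3.98 and 9.46 in the 4 libraries and was not tested.

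**Figure D4:**
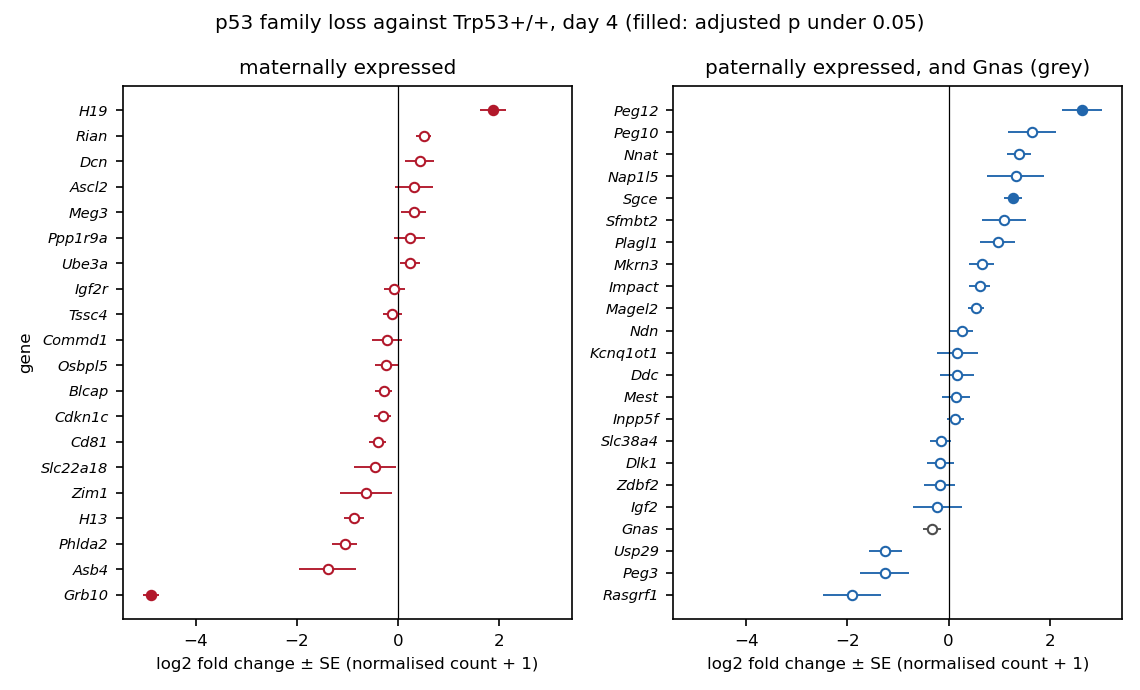
Log2 fold change (p53 family loss minus Trp53+/+, day 4, on log2 of the normalised count plus 1) of the 43 tested members, with the standard error as a bar and filled symbols for adjusted p under 0.05. Grb10 at -4.88 stands alone on the left, and the filled symbols on the right are Peg12, H19 and Sgce.

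The count of calls in this comparison moved with single libraries. Without replicate 1 of Trp53+/+ it was 9 higher and 3 lower, without replicate 2 of Trp53+/+ 5 higher and 7 lower, and without replicate 2 of the loss line 2 higher and 1 lower. Grb10, H19 and Peg12 kept their calls in all 11 alternatives. In the 4 that leave out a library, 1 group has a single library, which is assumed to vary like those of the other group. The summed streak markers were 1425 to 1478 CPM in Trp53+/+ and 295 to 336 CPM in the loss line, with 6 of 8 markers called lower. Neural markers summed to 168 to 258 CPM and 390 to 407 CPM, with 2 of 8 tested called higher. Feeder fibroblast markers were at 43.0 to 49.2 CPM and 89.3 to 114 CPM, with 1 of 8 tested called higher. Extraembryonic endoderm markers were at 271 to 418 CPM and 389 to 430 CPM, and trophoblast markers at 44.6 to 70.8 CPM and 31.7 to 52.2 CPM. The part of these cell types in the member values was not tested.

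The 2 tables could be set side by side only in CPM, and the lines differ in strain, medium and table at once, so these differences were not tested. In 6 of the 43 members all 4 libraries of the Trp53 table lay above all 10 E14 libraries of any day, against 2.91% of 14691 genes, and in 0 they lay below, against 3.14%. The 10 include the earlier days, when members that rose by day 4 were low, so such members could hardly lie below all 10. Mest ranged over 8.60 to 25.6 CPM in E14 and read 243 and 135 CPM in Trp53+/+ and 232 and 182 CPM in p53 family loss. Nnat ranged over 2.88 to 11.2 CPM in E14 and read 73.4 and 92.3 CPM in Trp53+/+ and 188 and 258 CPM in p53 family loss. Plagl1, a zinc finger transcription factor of the imprinted network, ranged over 0.343 to 1.50 CPM and read 9.58 and 5.39 CPM in Trp53+/+ and 18.8 and 11.2 CPM in p53 family loss. All 3 are paternally expressed, and Trp53+/+ at day 4 had a mean 8.83 times (Mest), 7.62 times (Nnat) and 10.2 times (Plagl1) that of E14 at day 4. Kcnq1ot1 ranged over 4.12 to 18.1 CPM and read 41.3 and 46.9 CPM in Trp53+/+ and 82.3 and 31.6 CPM in p53 family loss. The other two were maternally expressed. H19 ranged over 1.41 to 33.3 CPM in E14 and read 101 and 56.4 CPM in Trp53+/+ and 313 and 257 CPM in p53 family loss. Dcn ranged over 0.0371 to 1.35 CPM and read 4.18 and 3.82 CPM in Trp53+/+ and 4.88 and 6.26 CPM in p53 family loss. In the opposite direction, at day 4 Igf2 was 324 and 846 CPM in E14 and 117 and 44.1 CPM in Trp53+/+, and Asb4 was 71.8 and 91.8 CPM in E14 and 23.1 and 6.18 CPM in Trp53+/+. At day 4 alone, both Trp53+/+ libraries also lay below both E14 libraries in Peg3, Peg10, Phlda2, Slc38a4, Zim1, Sgce, Ndn, Meg3 and Rian. The same held for Cdkn1c, Slc22a18, Blcap, H13, Tssc4, Peg12, Dlk1, Mkrn3, Usp29 and Rasgrf1. Besides the 6, Magel2 and Impact lay above. The share of all genes was not computed for this split by day 4 alone.

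**Figure D5:**
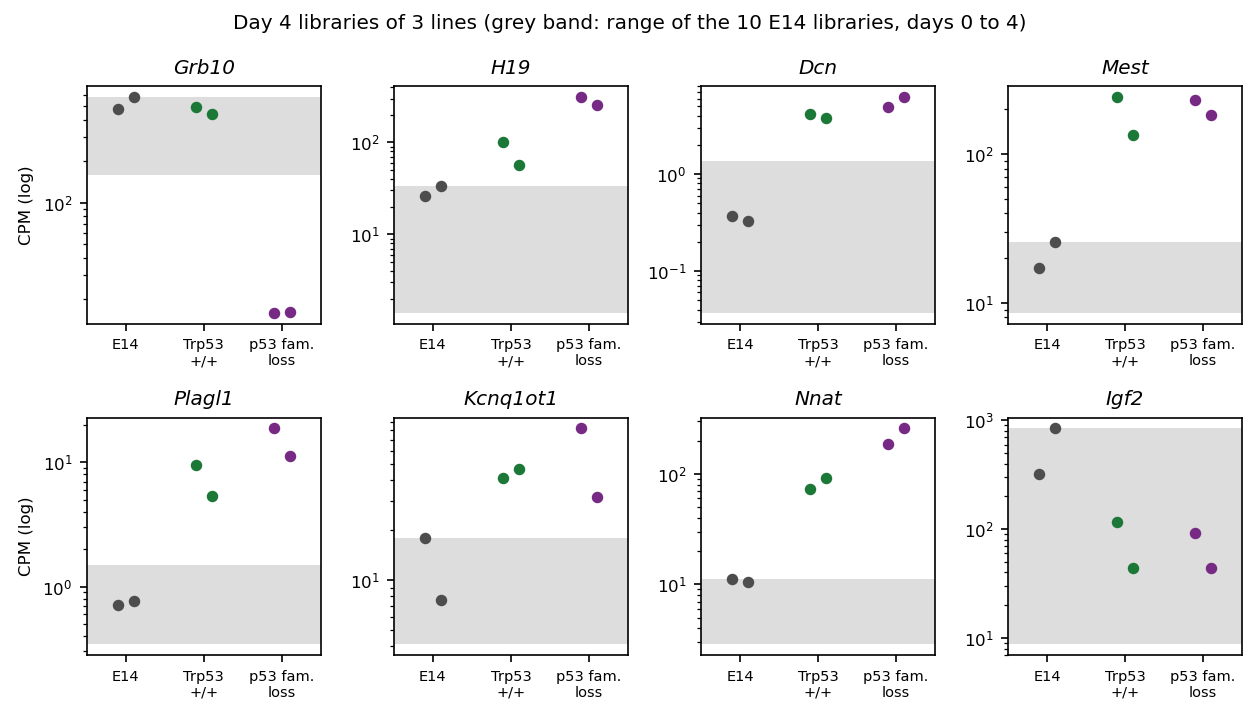
CPM of 8 members on log axes in the day 4 libraries of E14 (black), Trp53+/+ (green) and p53 family loss (purple), with the range of all 10 E14 libraries as a grey band. Mest, Plagl1, Kcnq1ot1, Nnat, H19 and Dcn lie above the band in all 4 libraries of the C57BL/6J lines, Grb10 is below it only in the loss line, and Igf2 is within it.

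Of 19 tested factors listed for imprint control, 8 fell (42.1%, against 16.7% of all genes) and 3 rose (15.8%, against 19.2%) from day 0 to day 4. Their median log2 fold change was -0.42. The list joins factors that set, protect or read imprints with Tet1, Tet2 and Tet3, which act in the removal of DNA methylation. The 3 that rose were Dnmt3b, Tet3 and Smchd1. The 8 that fell were Zfp57, Trim28, Dppa3, Setdb1, Dnmt3l, Tet1, Tet2 and Eed. Zfp57, whose protein guards methylated imprints together with TRIM28, read 10019.7 and 14702 at day 0, 13910.1 and 6301 at day 1, 1843 and 1070.2 at day 2, 1135 and 1290.4 at day 3 and 2231 and 1798 at day 4. It fell by day 4 (log2 -2.60, SE 0.37, adjusted p = 6.9e-04). Trim28 fell as well, with 91729 and 121746 at day 0 and 43163 and 48439 at day 4 (log2 -1.21, SE 0.22, adjusted p = 0.0027). Dppa3, which shields DNA methylation in the zygote, fell with 2250.0 and 368 at day 0 and 42.1 and 65.2 at day 4 (log2 -4.09, SE 0.79, adjusted p = 0.0035). Dnmt3l, the cofactor of new DNA methylation, fell with 5438 and 17644 at day 0 and 971 and 898 at day 4 (log2 -3.39, SE 0.55, adjusted p = 0.0014). The maintenance methyltransferase Dnmt1 and its partner Uhrf1 did not pass, with a log2 fold change of -0.17 (SE 0.24, adjusted p = 0.60) and of -0.43 (SE 0.19, adjusted p = 0.10). Between genotypes 0 of these 19 were called by limma, edgeR or DESeq2, and 2 had an unadjusted p under 0.05 in limma. The log2 fold change was 0.15 (SE 0.21, adjusted p = 0.84) for Zfp57 and -0.16 (SE 0.19, adjusted p = 0.80) for Trim28.

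A further list of 33 imprinted genes, 24 of them tested in E14, gave 5 higher (20.8%, against 19.2% of all genes) and 3 lower (12.5%, against 16.7%) at day 4, with a median log2 fold change of 0.07. Both shares were near those of all genes. The smallest p-values were those of Gab1, Ampd3, Herc3 and Atp10a. Gab1, a receptor signalling adaptor, fell from 9277 and 15368 at day 0 to 2583 and 3299.5 at day 4 (log2 -2.03, SE 0.25, adjusted p = 3.1e-04). Ampd3, an AMP deaminase, fell from 229 and 366 at day 0 to 48.7 and 56.5 at day 4 (log2 -2.44, SE 0.33, adjusted p = 5.4e-04). Herc3, the ubiquitin ligase gene that contains Nap1l5, rose from 678 and 742 at day 0 to 2009.7 and 2041 at day 4 (log2 1.51, SE 0.23, adjusted p = 9.2e-04). Atp10a, a phospholipid transporter, rose from 409 and 793 at day 0 to 1849.7 and 1866 at day 4 (log2 1.70, SE 0.36, adjusted p = 0.0058). Between genotypes 0 of the 22 tested were called by limma or by edgeR, and 6 had an unadjusted p under 0.05. DESeq2 called 2 higher and 1 lower.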

How the data were processed

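RNA-seq was analysed for 14 libraries. The 16 ChIP and input samples were not analysed here. Per the labels' protocols, the kit was TruSeq RNA v2, the RNA integrity number was above 9.5, and reads were paired. Tools named in the submitters' processing notes are FastQC 0.11.3, Bowtie2, SAMtools 0.1.19, HTSeq 0.5.4 and DESeq2, with build mm9. Their roles are not given in the sources used here.

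The deposited tables hold a signal per gene, the number of reads over a factor fixed for each library: 100% of the values were whole multiples of the library's smallest step within 1e-06. It is called the normalised count here. Reads were recovered by that division, and CPM was computed from them. Genes passed edgeR's filterByExpr on recovered reads (15841 in the time course, 14840 between genotypes), which kept 43 members in both, all but Snrpn. The test was limma 3.58.1 in R 4.3.3, with an intensity trend, on log2 of the normalised count plus a pseudocount of 1, fitted per table with all its libraries (5 and 2 residual degrees of freedom) and adjusted by Benjamini-Hochberg over all genes tested, at 0.05. Scripts were tested on simulated data. Alternatives were edgeR 4.0.16 quasi-likelihood with TMM and DESeq2 1.42.0 on the recovered reads, other pseudocounts, filters and scalings, a replicate block, and each library left out. On the recovered reads edgeR called 18 members higher and 2 lower at day 4 against day 0, and 3 and 1 between genotypes. DESeq2 called 22 higher and 3 lower at day 4 against day 0.

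The members and lists were chosen with earlier results of these data known, and no count of them is independent support. Described with every value are members with adjusted p under 0.05 and a group mean of at least 10 CPM, and always H19, Igf2, Igf2r, Meg3, Rian, Dlk1, Cdkn1c, Grb10, Peg12, Peg3, Kcnq1ot1 and Snrpn. Zim1, Usp29, Dcn, Slc22a18, Rasgrf1, Plagl1, Ube3a, Mkrn3 and Ppp1r9a were named outside that rule after their values were seen, as was the CCAAT search. Of the other lists, 6 imprint factors and the 4 other imprinted genes of smallest p are described with values. The remaining imprint factors called at day 4 against day 0 are given by name only. The 14 libraries stand for their groups by label only, and intervals cover counting error only.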

Additional observations from a re-analysis of the deposited data

How the results depend on the processing

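Over all comparisons 35 calls were made on members. Of these 15 held under every alternative and 0 changed sign, and 62 of 592 recomputed values fell short of the threshold. With only the day 0 and day 4 libraries in the fit, 10 members were higher and 1 lower at day 4. DESeq2 called 5 higher and 3 lower from day 0 to day 1, 3 and 4 from day 1 to day 2, and 1 and 2 from day 2 to day 3. It called 10 higher and 1 lower from day 3 to day 4, and 5 and 5 between genotypes. For day 1 against day 0, edgeR and a pseudocount of 5 each gave 1 lower. The cause of these differences was not tested, beyond the smaller number of libraries in the first.

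Where 1 library was left out, the lone one of its group is assumed to vary like the others. Leaving out 1 library at a time gave 9 to 23 higher and 1 to 7 lower for day 4 against day 0, and 1 to 9 higher and 0 to 9 lower for day 1 against day 0. It gave 0 to 5 higher and 0 to 5 lower for day 2 against day 1, 0 higher and 0 to 2 lower for day 3 against day 2, and 2 to 13 higher and 0 to 2 lower for day 4 against day 3. For any change it gave 18 to 37, and between genotypes 2 to 9 higher and 1 to 7 lower. The highest counts of the first 2 comparisons came without replicate 2 of day 0.

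The labels do not say whether equal replicate numbers mark paired libraries. Deviations of same-numbered E14 libraries correlated at -0.19 to 0.35 across genes, and those of the genotypes at 0.57, with 2 groups only. With the replicate block, 12 members were higher and 9 lower between genotypes. Among the added calls were Phlda2, Peg3, Usp29 and Asb4 (lower) and Nnat, Peg10 and Rian (higher). Dcn and Rasgrf1 rested on 3 reads each over both day 0 libraries, and Snrpn was too low to be tested. Whether depth or the spread between libraries limits the other calls was not tested.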
